A study of Mus musculus with 69 samples.

Results

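Retinoid binding, synthesis and receptor genes were followed by 8 members: Rbp4, Stra6, Rdh10, Dhrs3, Aldh1a2, Rara, Rarb and Rarg. They were found by their symbols among the 24537 genes of each mouse expression table, and each of the 8 was listed once. RNA was sequenced from bone marrow-derived macrophages (BMDMs), which were grown for 7 days with macrophage colony-stimulating factor from the marrow of female mice of 8 to 12 weeks and were left untreated (basal) or given 20 ng/ml of interleukin-4 (IL-4), the cytokine that drives alternative macrophage activation. The first table compared basal cells with cells given IL-4 for 24 h in 5 inbred strains, the classical laboratory strains C57BL/6J (C57), BALB/cJ (BALB) and NOD/ShiLtJ (NOD) and the wild-derived strains SPRET/EiJ (SPRET) and PWK/PhJ (PWK), with 3 libraries a group except for the basal PWK group, which had 2. The second followed C57 and SPRET cells at basal and after 1, 6 and 24 h of IL-4, with 2 libraries a group. The third did the same in Egr2 fl/fl cells, called Egr2WT, and LyzM-Cre Egr2 fl/fl cells, called Egr2MKO, in which a Cre recombinase expressed in myeloid cells deletes the transcription factor Egr2. Both genotypes carry the floxed Egr2 allele, and the Egr2WT cells carry no Cre. Cells of the F1 crosses C57xNOD and C57xSPRET, with 2 libraries at basal and 2 after 24 h of IL-4, gave a value for each parental allele. The replicates of a group were given as biological replicates, with nothing that tied a library to a named animal, so the p-values measure the spread between these libraries, part of which may be technical.

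Vitamin A travels in blood as retinol bound to retinol-binding protein 4, and cells take it up through receptors such as STRA6. Inside the cell, retinol dehydrogenases such as RDH10 oxidize retinol to retinaldehyde, DHRS3 reduces retinaldehyde back to retinol, and ALDH1A2 commits retinaldehyde to retinoic acid. Retinoic acid binds the nuclear receptors RAR alpha, beta and gamma, which pair with RXR on DNA, and Rarb and Dhrs3 are among the classical genes that these receptors switch on. In macrophages, retinoic acid and IL-4 are both known to shape alternative activation.

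The depth per library was 7.02 M to 22.5 M tags (M, mega) in the table of 5 strains and 5.70 M to 24.0 M tags in the time course. In the Egr2 table the totals in the column headers did not follow the values, so depth was taken from the reads recovered from the values and was 1.77 M to 15.9 M reads, with the lowest value in the Egr2MKO 6 h library of replicate 2. Egr2 itself lay between 21.3 and 101 TPM (a read count scaled for transcript length and library depth) in the 8 Egr2WT libraries and between 0.854 and 7.05 TPM in the 8 Egr2MKO libraries. Macrophage markers summed to at least 9460 TPM in every library. In the 5 strains most of this sum was Lyz2, at 5280 to 25900 TPM, and Cd68, at 2460 to 4010 TPM. Csf1r ran from 116 to 601 TPM there and Fcgr1 from 0.265 to 76.3 TPM, differences that the sum does not show. The adipocyte markers Adipoq, Plin1 and Lep, which mark the fat cells that are a classical source of Rbp4, summed to at most 0.902 TPM. In such bulk libraries, fewer cells that express a gene and less RNA per cell cannot be told apart.

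Promoter windows are shown for Rbp4 and Dhrs3, the members that rose most after IL-4, and for Rarb, whose window holds the letters of the classical retinoic acid response element. The windows came from RefSeq on GRCm38.p6 (mm10), where 7 of the 8 members had an entry, all but Rdh10, and each one runs 5′ to 3′ on the gene's strand through the 250 bases before the start site. Capitals mark a motif match.
Rbp4, chr19:38124812-38125061, minus strand: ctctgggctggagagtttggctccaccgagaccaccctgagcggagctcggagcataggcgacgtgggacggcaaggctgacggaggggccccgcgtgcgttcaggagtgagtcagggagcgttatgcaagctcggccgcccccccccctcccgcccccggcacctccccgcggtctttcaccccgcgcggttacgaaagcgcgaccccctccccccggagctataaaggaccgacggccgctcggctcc
Dhrs3, chr4:144892887-144893136, plus strand: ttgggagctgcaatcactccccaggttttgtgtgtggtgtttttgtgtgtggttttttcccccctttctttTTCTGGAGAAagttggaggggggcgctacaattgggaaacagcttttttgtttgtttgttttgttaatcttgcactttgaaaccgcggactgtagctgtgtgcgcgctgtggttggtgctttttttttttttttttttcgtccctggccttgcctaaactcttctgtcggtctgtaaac
Rarb, chr14:16575477-16575726, minus strand: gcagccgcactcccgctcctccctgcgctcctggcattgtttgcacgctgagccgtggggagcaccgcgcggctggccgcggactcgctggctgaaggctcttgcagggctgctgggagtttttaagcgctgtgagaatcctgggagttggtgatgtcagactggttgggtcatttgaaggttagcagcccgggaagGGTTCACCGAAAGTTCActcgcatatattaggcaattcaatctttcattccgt
The search covered both strands, from 250 bases before the start to 50 after it, in 32817 RefSeq windows. The Dhrs3 capitals are a STAT6-type match, TTC and GAA with 4 bases between them, 179 bases before the start, and 6.94% of all windows held this motif. The Rarb capitals are a DR5 match, a pair of half-sites in the same direction with 5 bases between them, 53 bases before the start, where a half-site beginning with A could be AGGTCA or AGTTCA, and a half-site beginning with G could be GGGTCA or GGTTCA. It was found in 0.0975% of windows, and a match to TTC and GAA with 3 bases between them, found in 8.29% of windows, overlapped it. The EGR-type motif GNGTGGGNG was in 14.3% of windows, and among the members it was found in Rara, on the minus strand 77 bases before the start, and in Aldh1a2, 40 bases after it. The Rbp4 window held none of the searched motifs, which says only that these letters are not in this window.

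Rbp4, the gene of the retinol carrier (chr19:38116620-38124811, minus strand), rose after 24 h of IL-4 in each of the 5 strains, from next to nothing to group means between 3.46 TPM in NOD and 60.3 TPM in BALB. In C57 it stood at 0.095, 0 and 0.215 TPM at basal, which is 1, 0 and 3 reads, and at 31.3, 28.8 and 32.3 TPM after IL-4. In BALB the basal values were 1.47, 0.94 and 0.992 TPM and those after IL-4 were 64.2, 57.1 and 59.7 TPM. In NOD the values went from 0.115, 0.366 and 0 TPM to 3.34, 3.53 and 3.52 TPM. The NOD values after IL-4 rested on 36, 20 and 22 reads and lay far under those of the other strains. In PWK they went from 0.365 and 0.356 TPM to 54.0, 63.5 and 50.0 TPM, and in SPRET from 0.15, 0.222 and 0.071 TPM to 16.2, 14.8 and 12.6 TPM. No strain's basal libraries overlapped its IL-4 libraries, and after IL-4 only BALB and PWK overlapped with each other. The group means after IL-4 were 60.3 ± 3.62 TPM in BALB, 55.9 ± 6.93 in PWK, 30.8 ± 1.81 in C57, 14.5 ± 1.8 in SPRET and 3.46 ± 0.104 in NOD (SD, n = 3 each).

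Folds are given as a log2 difference of TPM + 1, which understates the change of genes as low as basal Rbp4, and a gene was called where the fold exceeded 2 and the adjusted p of limma, over all genes of the table, was under 0.05. On this scale Rbp4 rose by 4.85 (standard error (SE) 0.11, limma adjusted p = 6.1e-21) in C57, 4.85 in BALB (adjusted p = 2.0e-20), 5.38 in PWK (adjusted p = 1.4e-20), 3.75 in SPRET (adjusted p = 4.0e-19) and 1.96 in NOD (adjusted p = 1.7e-12). Of the 11907 genes tested, 3.80% were called in C57 and 3.94% in SPRET, against 2.08% in BALB, 2.08% in PWK and 1.19% in NOD. Of the 8 members, 5 passed the filter of 1 TPM in at least 2 libraries, and Rbp4 and Dhrs3 were the members called. Rbp4 reached 1 TPM in 16 of the 29 libraries, those after IL-4 and the basal BALB library at 1.47 TPM. It passed the filter through the libraries where it was high, so its rises are given as descriptions. Aldh1a2, Rarb and Stra6 were below the filter. With a pseudocount of 5 in place of 1, the NOD rise of Rbp4 was 0.71 and lost its call.

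The NOD response of Rbp4 was smaller than the C57 response by 2.90 on the log2 scale (NOD minus C57 -2.90, SE 0.16, limma adjusted p = 9.8e-13), and the SPRET response was smaller by 1.10 (SPRET minus C57 -1.10, adjusted p = 8.4e-06). The PWK minus C57 difference was 0.53 (adjusted p = 0.029), under the fold limit, and the BALB minus C57 difference was -0.00 with a 95% interval of -0.33 to 0.33. These 4 comparisons share the C57 libraries. Basal BALB cells already had 0.94 to 1.47 TPM of Rbp4 and basal C57 cells at most 0.215 TPM, and the comparison of their responses depended on how low values were treated. With limma-voom on the recovered reads, an analysis chosen after the data were seen, the BALB response was smaller than that of C57 by 1.85 (BALB minus C57 -1.85, adjusted p = 0.041), and the SPRET minus C57 difference of -1.23 was no longer called (adjusted p = 0.23). The PWK difference turned its direction with voom, to -0.55 (adjusted p = 0.69), so that C57, at 7.58, and not PWK, at 7.03, had the largest Rbp4 rise on that scale. In these differences 1.49% of all genes were called for BALB, 2.47% for NOD, 2.26% for PWK and 3.45% for SPRET, and the called member for NOD and for SPRET was Rbp4. For BALB no member was called by limma, 2 of the 5 tested had an unadjusted p under 0.05 and voom called 1. For PWK no member was called by limma or by voom, and all 5 tested had an unadjusted p under 0.05. The median response of all genes, against which these can be read, was -0.11 in BALB, 0.12 in NOD and 0.11 in SPRET.

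**Figure D1:**
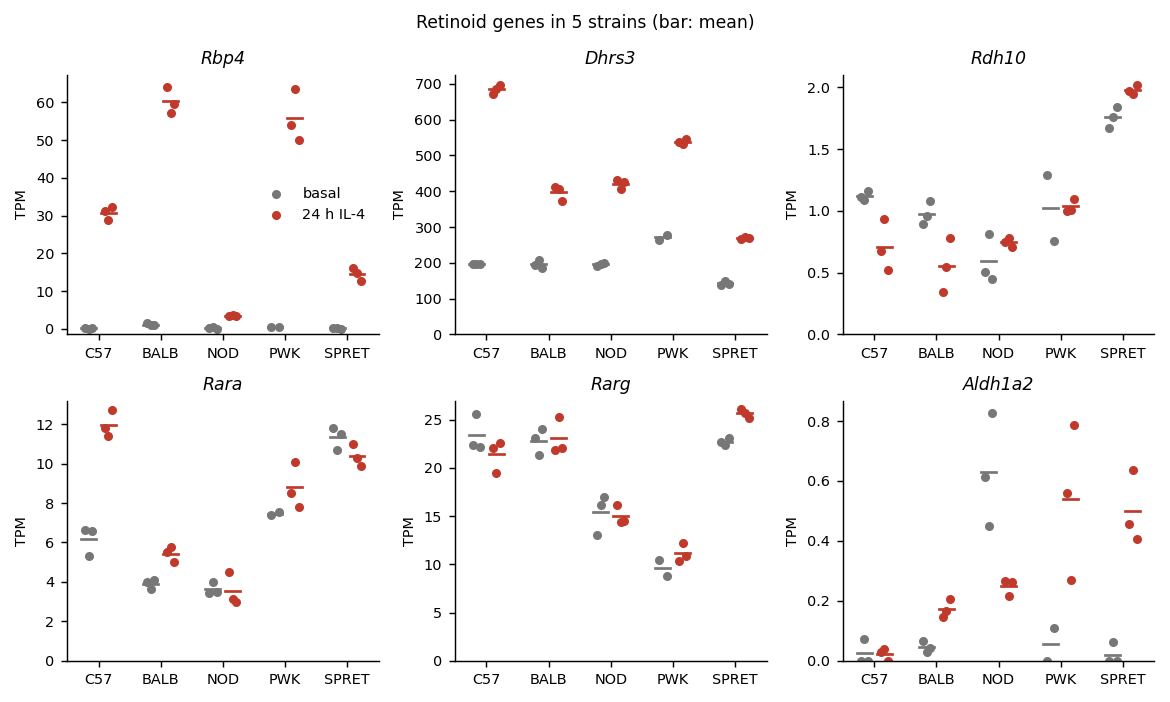
TPM of 6 members in each library of the 5 strains, with basal libraries in grey, libraries after 24 h of IL-4 in red and bars at the group means. Rbp4 is near 0 in the basal groups and spans 3.34 to 64.2 TPM after IL-4, while Rarg shows no such step in any strain.

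As a level rather than a response, basal Rbp4 was higher in BALB than in C57 by 0.95 (limma adjusted p = 2.0e-07), just under the fold limit, and voom called it at 2.81. After IL-4, Rbp4 was called lower than C57 in NOD (-2.83, adjusted p = 6.0e-17) and in SPRET (-1.04, adjusted p = 1.0e-08), and it was higher by 0.95 in BALB and by 0.83 in PWK, both under the fold limit. The SPRET call was lost without the SPRET IL-4 library of replicate 3 (-0.95). Egr2, the gene deleted in the third table, rose by 1.97 in C57, 1.08 in BALB, 2.01 in PWK and 4.09 in SPRET and was not called in NOD. Basal Egr2 lay at 1.87 to 2.2 TPM in SPRET and at 12.5 to 14.4 TPM in C57. After IL-4 Egr2 lay at 48.7 to 62 TPM in C57, 35.5 to 40.5 in BALB, 26.8 to 30.4 in NOD, 15 to 18 in PWK and 50 to 50.9 in SPRET. The relation of Egr2 to the strain differences of Rbp4 was not tested.

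The time course placed the Rbp4 rise between 6 and 24 h. In C57 the values were 0 and 0.158 TPM at basal, 0 and 0.121 at 1 h, 0.619 and 0.192 at 6 h, and 37.0 and 28.7 at 24 h. In SPRET they were 0.136 and 0, 0.161 and 0, 0.598 and 0, and then 2.48 and 1.96 TPM at 24 h, on 35 and 11 reads. Rbp4 passed the filter of this table only through the 24 h libraries, so it had to differ there. The 24 h libraries stood above all earlier ones in both strains, and those of SPRET stayed far below those of C57. Rbp4 rose by 4.96 in C57 (SE 0.24, limma adjusted p = 7.4e-09) and by 1.59 in SPRET (SE 0.24, adjusted p = 1.8e-04). The difference between these responses was -3.37 (SPRET minus C57, SE 0.33, adjusted p = 1.3e-05) with a 95% interval of -4.10 to -2.65. At 6 h the changes of 0.37 in C57 and 0.25 in SPRET did not pass the test (adjusted p = 0.32 and 0.48), and at 6 reads or fewer per library a small change was not detectable. In both tables the SPRET response was the smaller one, at -1.10 in the table of 5 strains and at -3.37 here, 2 values from tables that were normalized separately. Because of the filter the -3.37 is given as a description. The -1.10 lost its call with voom (-1.23, adjusted p = 0.23) and with a pseudocount of 5 (-0.89).

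In Egr2WT cells Rbp4 followed the same late course, and in Egr2MKO cells nearly all of the rise was missing. The Egr2WT values were 0.296 and 0 TPM at basal, 0 and 0.224 at 1 h, 0.284 and 0.4 at 6 h, and 44.8 and 40.2 at 24 h. The Egr2MKO values were 0.101 and 0, 0 and 0.15, and 0 and 0 TPM at basal, 1 h and 6 h, and 0.887 and 0.994 TPM at 24 h, on 3 and 5 reads. With 0 reads in both Egr2MKO 6 h libraries, the 3 reads that a count of 0 allows correspond to at most 0.595 and 2.77 TPM, counting error only. At 24 h Rbp4 was lower in Egr2MKO (Egr2MKO minus Egr2WT -4.49 on the log2 scale, SE 0.19, limma adjusted p = 6.3e-09), and the difference in response was -4.37 (SE 0.27, adjusted p = 2.4e-06). In this table Rbp4 passed the filter only through the 2 Egr2WT libraries at 24 h, so it had to differ there, and without either of these libraries it could not be tested. The rise within Egr2WT was 5.25 (adjusted p = 1.3e-09). Within Egr2MKO it was 0.89 (adjusted p = 0.0035), under the fold limit, and voom called it at 3.52 (adjusted p = 0.0023). Of all 12079 genes tested, 4.55% differed between the genotypes at 24 h, and 1.90% differed in the 24 h response.

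**Figure D2:**
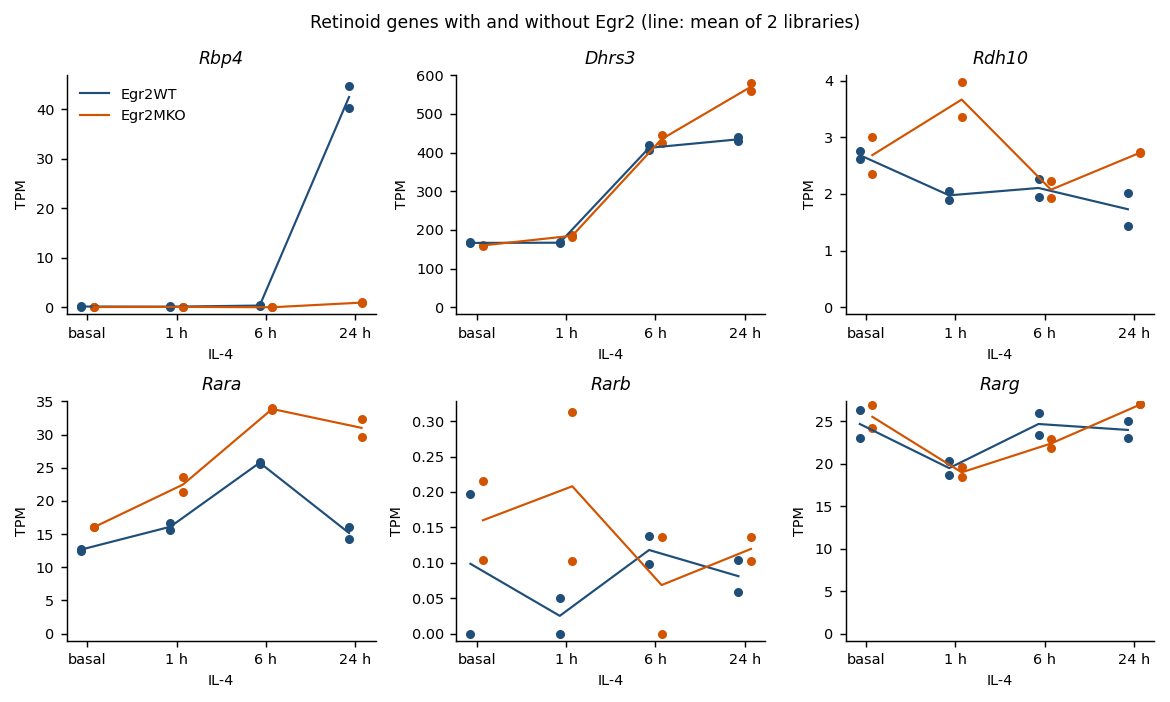
TPM of 6 members by time of IL-4 (h) in Egr2WT and Egr2MKO cells, with 1 point per library and lines through the means of 2 libraries. Rbp4 reaches 44.8 and 40.2 TPM in Egr2WT cells and at most 0.994 TPM in Egr2MKO cells, whereas Rara at 24 h is higher in Egr2MKO.

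The F1 crosses, in which both alleles share one cell, gave Rbp4 values from both parents. In C57xNOD cells after IL-4 the C57 allele was at 497 and 707 and the NOD allele at 761 and 891, in the allele-assigned units of that table. At basal the C57 allele was at 35.1 and 0 and the NOD allele at 41.4 and 0. The NOD allele was thus not below the C57 allele in either library, with log2 ratios of C57 to NOD of -0.61 and -0.33 (mean -0.47, SE 0.15, limma adjusted p = 0.39, 95% interval -0.95 to 0.00). The strains differed after IL-4 by -2.83 on the log2 scale (NOD minus C57), in the TPM units of another table. In C57xSPRET cells after IL-4 the C57 allele was at 23.9 and 27.2 and the SPRET allele at 4.84 and 13.7. The C57 allele was the higher one in both libraries, with log2 ratios of 2.09 and 0.94 (mean 1.52, SE 0.31, 95% interval 0.66 to 2.38), and the limma adjusted p was 0.067. Without the IL-4 library of replicate 2 the ratio was called. The basal log2 ratios were -0.23 and 0.00 in C57xNOD (mean -0.12) and 0.00 and -0.22 in C57xSPRET (mean -0.11). The 0.00 of C57xNOD came from a library with 0 for both alleles, which holds no information on their ratio. In C57xSPRET, 2 basal allele values of Rbp4 were also 0. Against these basal means the ratio moved by -0.36 in the first cross and by 1.63 in the second (limma adjusted p = 0.84 and 0.63). These movements are given as descriptions only.

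No member was called in either cross. In C57xNOD, 0.288% of the 5213 genes tested were called at basal and 0.269% after IL-4, and 4 members were tested, of which 1 at basal and none after IL-4 had an unadjusted p under 0.05. In C57xSPRET, 7.65% of 11841 genes were called at basal and 4.48% after IL-4, and 5 members were tested, of which none at basal and 2 after IL-4 had an unadjusted p under 0.05. A value of 0 in these tables can be a failed assignment, since 78.9% to 83.6% of all C57xNOD values and 35.3% to 42.8% of all C57xSPRET values were listed at 0, and their depth is unknown. Aldh1a2, Rarb, Rarg and Stra6 were listed at 0 in every C57xNOD column. Rarg had values in C57xSPRET, 35.2 and 25.9 for the C57 allele and 35.6 and 26.6 for the SPRET allele at basal, which lay close together. After IL-4 the C57 allele of Rarg was at 24.1 and 19.1 and the SPRET allele at 27.1 and 40.8, with log2 ratios of C57 to SPRET of -0.16 and -1.06, which differed between the libraries and did not pass the test (mean -0.61, limma adjusted p = 0.19).

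**Figure D3:**
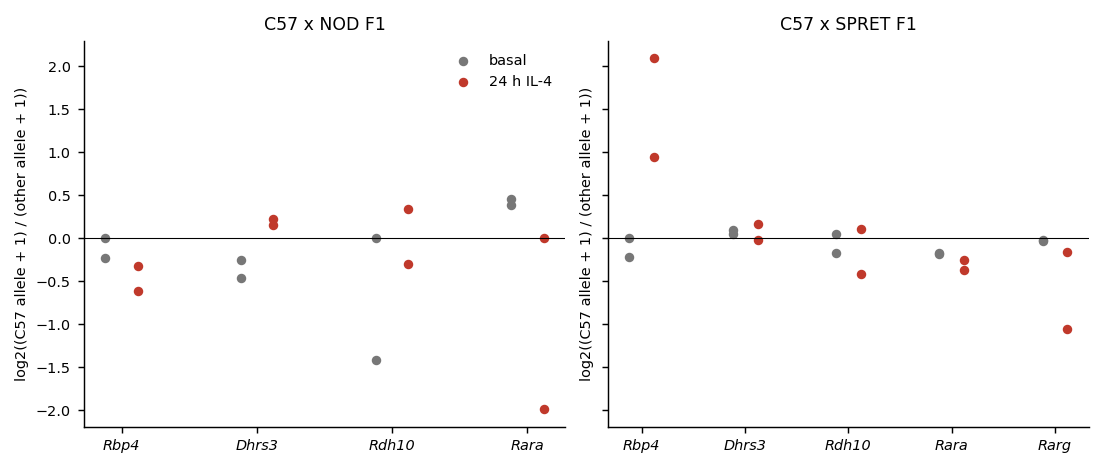
log2 ratio of the C57 allele to the other parental allele for the tested members in each F1 library, at basal and after 24 h of IL-4, with the line at 0 marking equal alleles. For Rbp4 after IL-4 the C57xNOD ratios are -0.61 and -0.33 and the C57xSPRET ratios are 2.09 and 0.94.

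Stra6, the cell-surface receptor that takes retinol from its carrier (chr9:58129349-58153997, plus strand), was listed at 0 in 28 of 29 libraries of the 5 strains, in 14 of 16 of the time course and in 16 of 16 of the Egr2 table. Its highest value was 0.176 TPM, on 2 reads, in a SPRET library at 1 h of the time course, and a C57 library at 24 h held 0.097 TPM, on 4 reads. A count of 0 allows 3 reads, which for Stra6 corresponds to between 0.0548 and 0.169 TPM in the table of 5 strains, so any expression was under the detection limit of nearly all libraries. Its relative Stra6l, which encodes a related receptor for the carrier, was present at 0.491 to 15.4 TPM in the same 29 libraries. Basal Stra6l was called lower than in C57 in PWK (-1.25, limma adjusted p = 6.8e-09) and in SPRET (-2.94).

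Dhrs3, which returns retinaldehyde to retinol (chr4:144893137-144927645, plus strand), had the highest TPM of the members and rose in all 5 strains, by more than 2-fold in C57, BALB and NOD, with the largest response in C57. In C57 it went from 198, 196 and 197 TPM to 673, 685 and 698 TPM. In BALB it went from 193, 209 and 186 TPM to 412, 405 and 373 TPM, and in NOD from 191, 198 and 199 TPM to 431, 405 and 426 TPM. These 3 strains started from overlapping basal levels, and after IL-4 the C57 libraries stood above all those of BALB and NOD. PWK went from 265 and 277 TPM to 538, 533 and 545 TPM, and SPRET from 138, 150 and 142 TPM to 268, 273 and 269 TPM. PWK began higher than the others and SPRET lower, and no strain's basal libraries overlapped its IL-4 libraries.

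The rise of Dhrs3 was 1.79 in C57 (SE 0.04, limma adjusted p = 6.1e-21), 1.10 in NOD (adjusted p = 1.0e-15) and 1.01 in BALB (adjusted p = 1.3e-15). It was 0.99 in PWK (adjusted p = 2.2e-14) and 0.91 in SPRET (adjusted p = 2.8e-15), which passed the p threshold and missed the fold limit by little, so the fold limit alone separates these strains from BALB and NOD. The BALB change was 0.98 to 1.00 and lost its call without the IL-4 library of replicate 1 or 2 or the basal library of replicate 3, and the NOD change was 0.92 and lost its call after median-ratio rescaling. The responses of BALB, NOD, PWK and SPRET were smaller than that of C57, with differences of -0.78, -0.70, -0.80 and -0.88 (limma adjusted p between 2.3e-11 and 3.3e-09). None of these differences was over 2-fold. The level after IL-4 was called lower than C57 in SPRET, by 1.34 on the log2 scale (SPRET minus C57 -1.34, adjusted p = 2.0e-19).

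Dhrs3 moved earlier than Rbp4. In the time course C57 cells held 211 and 206 TPM at basal, 209 and 213 at 1 h, 460 and 452 at 6 h and 567 and 571 at 24 h. SPRET cells held 200 and 197, 195 and 189, 346 and 347, and 296 and 285 TPM at the same times. The C57 libraries were highest at 24 h, and the SPRET libraries were highest at 6 h and lower again at 24 h. Dhrs3 rose in C57 by 1.12 at 6 h (SE 0.04, limma adjusted p = 1.1e-09) and 1.44 at 24 h (adjusted p = 6.4e-11). The SPRET changes were 0.80 at 6 h (adjusted p = 7.0e-09) and 0.55 at 24 h (adjusted p = 1.9e-07), under the fold limit, and the response at 24 h differed between the strains by -0.89 (SPRET minus C57, adjusted p = 2.2e-07).

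**Figure D4:**
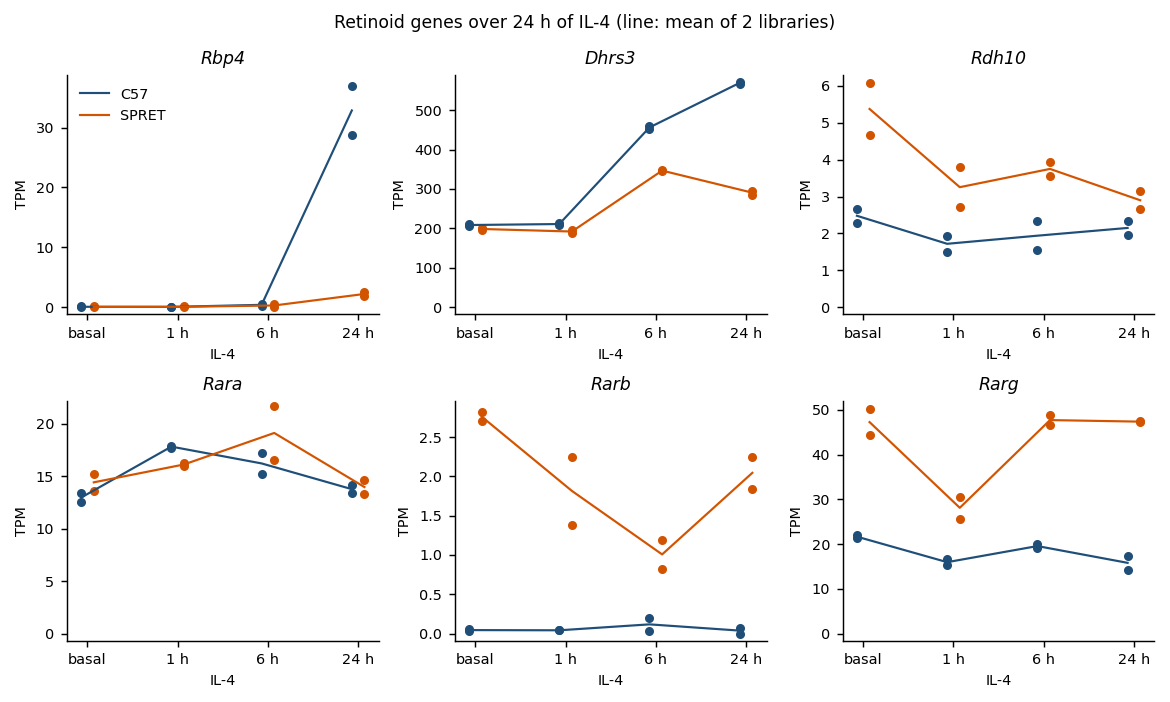
TPM of 6 members by time of IL-4 (h) in C57 and SPRET cells, with 1 point per library and lines through the means of 2 libraries. Dhrs3 is already at 460 and 452 TPM in C57 at 6 h, when Rbp4 is at 0.619 and 0.192 TPM.

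Dhrs3 was not lower in Egr2MKO cells. Egr2WT cells held 168 and 165 TPM at basal, 169 and 165 at 1 h, 419 and 406 at 6 h and 440 and 429 at 24 h. Egr2MKO cells held 161 and 159, 187 and 183, 446 and 424, and 560 and 581 TPM. Both Egr2MKO libraries lay just below the Egr2WT libraries at basal and above them at 1, 6 and 24 h, with the widest gap at 24 h. The rises were 1.31 and 1.38 in Egr2WT and 1.44 and 1.83 in Egr2MKO at 6 and 24 h, all called. At 24 h the level was higher in Egr2MKO by 0.39 (limma adjusted p = 4.6e-06) and the response was larger by 0.45 (adjusted p = 1.3e-04), both under the fold limit. The median of all genes at 24 h was itself higher by 0.12 in Egr2MKO.

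In the F1 crosses the Dhrs3 alleles lay close together. The log2 ratio of C57 to NOD was -0.35 at basal and 0.19 after IL-4, and the ratio of C57 to SPRET was 0.07 at both. The values after IL-4 were 1200 and 1230 for the C57 allele and 1080 and 1060 for the NOD allele, and 122 and 119 for the C57 allele and 110 and 121 for the SPRET allele. None of these ratios passed the test, and the 95% interval of the C57 to SPRET ratio after IL-4 was -0.18 to 0.31.

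Rdh10, which makes retinaldehyde from retinol (chr1:16105882-16132550, plus strand), was low in all strains. In C57 it was at 1.11, 1.09 and 1.16 TPM at basal and 0.675, 0.933 and 0.519 TPM after IL-4. In BALB it was at 0.891, 0.962 and 1.08 TPM and then 0.341, 0.543 and 0.781 TPM. The IL-4 libraries lay below the basal ones in both strains, and Rdh10 fell by 0.32 in C57 (limma adjusted p = 0.022) and by 0.36 in BALB (adjusted p = 0.012), changes of less than 2-fold on 7 to 40 reads per library. With voom the C57 change did not pass the test (-0.65, adjusted p = 0.075) and the BALB change did (-0.82, adjusted p = 0.017). In NOD, PWK and SPRET the changes were 0.14, 0.03 and 0.12 and did not pass the test. SPRET cells held the most Rdh10 after IL-4, 1.97, 1.95 and 2.02 TPM, which was above every C57 library and higher than C57 by 0.81 (adjusted p = 2.5e-07), a difference that voom called at 1.43.

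Basal Rdh10 of the time course was at 4.67 and 6.08 TPM in SPRET against 2.29 and 2.67 TPM in C57, a difference of 0.87 (limma adjusted p = 9.2e-04) that voom called at 1.12. It fell in SPRET by 0.70 by 24 h (adjusted p = 0.007), to 3.15 and 2.65 TPM, a fall not seen in SPRET of the table of 5 strains. The C57 fall of that table did not recur here. Rdh10 in C57 was at 1.97 to 2.33 TPM at 24 h, which overlapped basal, and voom gave -0.12 (adjusted p = 0.74). In the Egr2 table it was at 2.05 and 1.90 TPM in Egr2WT and 3.35 and 3.98 TPM in Egr2MKO at 1 h, higher by 0.65 (adjusted p = 0.015), and higher by 0.46 at 24 h (adjusted p = 0.03), where voom gave 0.63 without passing the test (adjusted p = 0.084). Both differences were under the fold limit, and there was none at basal (-0.00, 95% interval -0.33 to 0.32).

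Aldh1a2, which makes retinoic acid (chr9:71215789-71296243, plus strand), was too low to be tested, at no more than 28 reads in any library of the 5 strains. In C57 its values were 0, 0.074 and 0 TPM at basal and 0.03, 0.04 and 0 TPM after IL-4. NOD was the strain with most reads at basal, 13, 12 and 18, at 0.612, 0.451 and 0.826 TPM, and it had 7, 3 and 4 reads after IL-4, at 0.267, 0.217 and 0.262 TPM. In PWK the reads went the other way, from 0 and 3 at basal to 17, 6 and 28 after IL-4, and in SPRET from 0, 2 and 0 to 15, 26 and 16. SPRET also had 14 and 6 reads at 24 h of the time course, 0.408 and 0.437 TPM, and was listed at 0 at basal, 1 h and 6 h. No test was made at this depth, and the highest value of all, 1.13 TPM in the shallowest Egr2MKO library, was 3 reads.

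**Figure D5:**
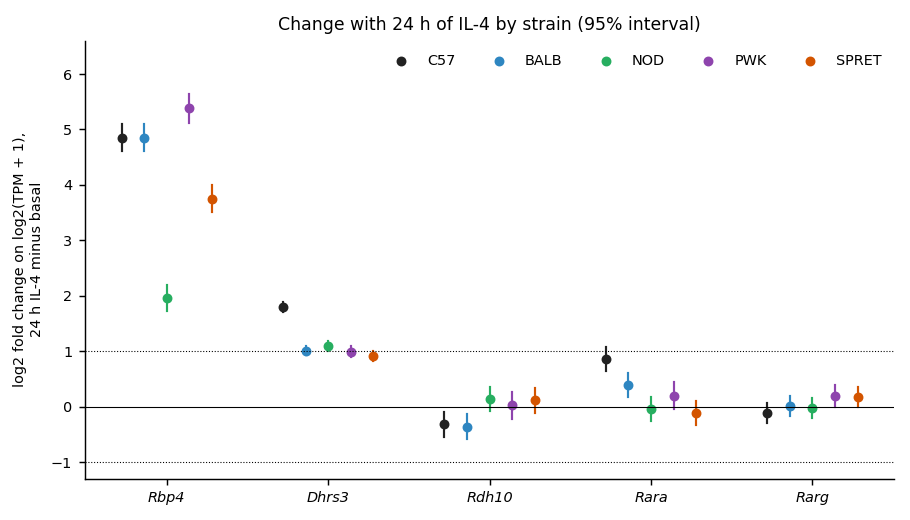
log2 change from basal to 24 h of IL-4, with 95% intervals, of the 5 tested members in each strain, with dotted lines at a 2-fold change. Rbp4 runs from 1.96 in NOD to 5.38 in PWK, Dhrs3 from 0.91 in SPRET to 1.79 in C57, the Rara intervals lie above 0 in C57 and BALB, and every Rarg interval includes 0.

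Rara, the receptor RAR alpha (chr11:98937718-98974942, plus strand), changed most in C57. It went from 6.65, 5.30 and 6.59 TPM to 11.8, 11.4 and 12.7 TPM in C57, and from 4.02, 3.64 and 4.08 TPM to 5.53, 5.77 and 4.99 TPM in BALB. In both strains the IL-4 libraries were above the basal ones. The other strains moved less, with 3.43, 3.98 and 3.51 TPM and then 4.50, 3.13 and 2.98 TPM in NOD, 7.37 and 7.57 TPM and then 8.49, 10.1 and 7.81 TPM in PWK, and 11.8, 10.7 and 11.5 TPM and then 11.0, 10.3 and 9.90 TPM in SPRET. The basal and IL-4 libraries overlapped in NOD and SPRET and not in PWK. SPRET had the highest basal Rara, at the level that C57 reached only after IL-4.

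Rara rose by 0.86 in C57 (SE 0.10, limma adjusted p = 2.5e-07) and by 0.39 in BALB (adjusted p = 0.0051), both less than 2-fold. The changes of -0.05 in NOD, 0.20 in PWK and -0.11 in SPRET did not pass the test. The responses of BALB, NOD, PWK and SPRET were each smaller than that of C57, by -0.47, -0.90, -0.65 and -0.97 as signed differences (adjusted p = 0.029, 4.7e-05, 0.0033 and 1.3e-05), less than 2-fold, and voom called the SPRET difference at -1.04. The level after IL-4 was called lower than C57 in NOD (-1.53, adjusted p = 1.9e-12) and in BALB (-1.01, adjusted p = 1.1e-08), where the call was lost without the BALB IL-4 library of replicate 3 (-0.96) or the C57 one of replicate 3 (-0.97). At basal it differed from C57 by -0.54 in BALB, -0.63 in NOD and 0.79 in SPRET, below the fold limit.

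The C57 rise of Rara at 24 h did not recur in the time course, whose gene model of Rara starts at 98937696, further upstream. There C57 cells held 12.5 and 13.4 TPM at basal, 17.7 and 17.9 at 1 h, 17.2 and 15.2 at 6 h and 14.1 and 13.4 at 24 h, a change of 0.08 at 24 h (SE 0.11, limma adjusted p = 0.59, 95% interval -0.16 to 0.32). The interval excludes the 0.86 of the table of 5 strains. The 1 h change of 0.43 missed the threshold in limma (adjusted p = 0.051), and voom gave 0.46 (adjusted p = 0.0038). In SPRET, Rara stood at 13.6 and 15.2 TPM at basal and 21.7 and 16.5 TPM at 6 h, a rise of 0.38 (limma adjusted p = 0.02). The higher basal Rara of SPRET did not recur either. With voom the basal SPRET minus C57 difference was 0.13 here (adjusted p = 0.26) and 0.84 in the table of 5 strains.

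Of the receptors tested in the Egr2 table, Rara and Rarg, it was Rara that differed between the genotypes. Egr2WT cells held 12.8 and 12.5 TPM at basal, 16.6 and 15.6 at 1 h, 25.6 and 25.9 at 6 h and 16.1 and 14.2 at 24 h. Egr2MKO cells held 16.0 and 16.0, 23.6 and 21.3, 33.7 and 34.0, and 29.6 and 32.4 TPM. Both Egr2MKO libraries lay above both Egr2WT libraries at all 4 times, and the gap was widest at 24 h. Egr2MKO exceeded Egr2WT by 0.31 at basal (limma adjusted p = 0.017), 0.46 at 1 h (adjusted p = 0.0016), 0.38 at 6 h (adjusted p = 0.0036) and 0.99 at 24 h (SE 0.07, adjusted p = 7.9e-07), the last just under the fold limit. The response at 24 h was larger by 0.68 (adjusted p = 0.0012). Within genotypes Rara rose by 0.97 in Egr2WT and 1.04 in Egr2MKO at 6 h, and by 0.24 and 0.91 at 24 h, of which the Egr2MKO change at 6 h was called. The Egr2MKO 6 h library of replicate 2 was the shallowest of the table, and without it the change was 1.03. The call was lost after median-ratio rescaling (0.96), after quantile normalization (0.93) and with a pseudocount of 5 (0.89).

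Rarb, the receptor RAR beta (chr14:16430840-16575476, minus strand), stayed under 1 TPM outside the SPRET libraries of the time course. In the table of 5 strains it did not exceed 0.342 TPM or 18 reads in any library and could not be tested. The highest values were those of SPRET, 0.311, 0.28 and 0.196 TPM at basal and 0.153, 0.226 and 0.342 TPM after IL-4, on 7 to 18 reads a library. In the time course the C57 libraries were at 0.198 TPM or less, and the SPRET libraries were at 2.82 and 2.70 TPM at basal, 1.38 and 2.25 at 1 h, 0.824 and 1.19 at 6 h and 2.25 and 1.84 at 24 h. No SPRET library overlapped a C57 library, and the 6 h libraries of SPRET were its lowest. Basal SPRET cells thus held far less Rarb in the table of 5 strains than in the time course, which were normalized separately. In the Egr2 table Rarb was at 0.313 TPM or less.

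Basal Rarb in the time course was higher in SPRET than in C57 by 1.85 (SE 0.18, limma adjusted p = 1.5e-06), a contrast added after the data were seen, and because Rarb passed the filter only through SPRET libraries it had to differ there. It fell in SPRET by 0.91 at 6 h (adjusted p = 0.0017), less than 2-fold, which voom called at -1.56. The difference in the 6 h response was called at -1.01 (SPRET minus C57, SE 0.25, adjusted p = 0.022), with C57 close to 0 throughout, and voom gave -2.18 without a call (adjusted p = 0.16). The call was also lost, at -1.02 to -0.87, without the C57 6 h library of replicate 2, either C57 basal library, the SPRET 6 h library of replicate 1 or the SPRET basal library of replicate 1. The share of all genes called in that difference was 2.40%. Markers of fibroblasts and stromal cells summed to 22.0 to 25.9 TPM in the SPRET libraries and to 1.54 to 3.02 TPM in the C57 libraries of the time course. The SPRET sum was mostly Pdgfrb. Over both strains Dcn lay at 1.18 to 2.57 TPM and Col1a1 at 0.099 TPM or less. The part of these markers in the Rarb level was not tested.

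Rarg, the receptor RAR gamma (chr15:102234938-102246500, minus strand), did not pass the test for a change with IL-4 at 24 h in any of the 5 strains, and it differed between strains. PWK libraries held 10.5 and 8.77 TPM at basal and 10.4, 12.2 and 10.9 TPM after IL-4. C57 libraries held 22.4, 25.6 and 22.2 TPM and then 22.1, 19.5 and 22.6 TPM, with BALB at 21.3 to 25.3 TPM, SPRET at 22.4 to 26.1 TPM and NOD at 13.0 to 17.0 TPM. PWK was below all other strains with no overlap, and NOD was below C57, BALB and SPRET. The changes with IL-4 lay between -0.12 and 0.19 and none passed the test. Basal Rarg was called lower in PWK than in C57 (-1.20, SE 0.10, limma adjusted p = 1.1e-10), and it was lower by 0.58 on the log2 scale in NOD (NOD minus C57 -0.58, adjusted p = 2.4e-06). After IL-4 the PWK difference was -0.88 (adjusted p = 3.5e-09), under the fold limit. In the PWK basal libraries the stromal markers summed to 204 to 213 TPM, nearly all of it Dcn. Neutrophil markers in PWK summed to 546 to 598 TPM, nearly all of it S100a8 and S100a9. In all 5 strains Ly6g was at most 0.276 TPM, Mpo at most 0.834 and Elane at most 1.31. The basal neutrophil sums were 106 to 131 TPM in C57 and 344 to 404 TPM in SPRET. The part of either marker list in the Rarg level was not tested.

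Rarg was lower at 1 h of the time course, and in C57 also at 24 h. C57 held 22.0 and 21.3 TPM at basal, 16.6 and 15.3 at 1 h, 19.9 and 19.2 at 6 h and 17.4 and 14.2 at 24 h, and SPRET held 44.3 and 50.2, 30.6 and 25.6, 46.5 and 48.9, and 47.2 and 47.5 TPM. The 1 h libraries were below the basal ones in both strains, and SPRET had returned by 6 h. C57 was again below its basal libraries at 24 h, by -0.44 as a signed difference (limma adjusted p = 0.0041), less than 2-fold. Rarg fell at 1 h by 0.42 in C57 (limma adjusted p = 0.036) and by 0.73 in SPRET (adjusted p = 3.6e-04), less than 2-fold in both, and the difference of -0.31 did not pass the test (adjusted p = 0.46). Egr2MKO cells went from 24.2 and 26.9 TPM to 19.6 and 18.4 TPM at 1 h, a fall of 0.40 (Egr2MKO 1 h minus basal -0.40, adjusted p = 0.017). Egr2WT cells went from 26.4 and 23.0 TPM to 20.3 and 18.7 TPM, which missed the threshold (-0.32, adjusted p = 0.071). Basal Rarg was called higher in SPRET than in C57 in the time course (1.09, adjusted p = 1.2e-06), whereas in the table of 5 strains the same pair of strains differed by -0.03 (adjusted p = 0.75, 95% interval -0.22 to 0.15). Without the SPRET basal library of replicate 2, the time course difference was 1.00 and was not called.

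The shares of all genes called give the background for these counts. Between basal strains they were 4.81% for BALB, 16.9% for NOD, 13.3% for PWK and 18.1% for SPRET against C57, and Rarg in PWK was the member called. For BALB, NOD and SPRET at basal no member was called, 2, 3 and 3 of the 5 tested had an unadjusted p under 0.05, and voom called 1, 0 and 0. After IL-4 the shares were 5.39%, 13.2%, 12.2% and 20.6%, and the members called were Rara for BALB, Rara and Rbp4 for NOD, none for PWK, where all 5 had an unadjusted p under 0.05 and voom called 0, and Rbp4 and Dhrs3 for SPRET. The median gene differed from C57 by -0.30 in NOD and -0.16 in PWK at basal, and by 0.18 in SPRET and -0.13 in NOD after IL-4.

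Of the 12088 genes tested in the time course, 0.877%, 2.13% and 5.76% were called in C57 at 1, 6 and 24 h and 1.89%, 4.57% and 5.62% in SPRET. The members called were Dhrs3 in C57 at 6 h, Dhrs3 and Rbp4 in C57 at 24 h and Rbp4 in SPRET at 24 h. Of 6 members tested, no member was called in C57 at 1 h, in SPRET at 1 h or in SPRET at 6 h, where 2, 3 and 4 had an unadjusted p under 0.05 and voom called 0, 0 and 1. Between the strains' responses, 0.811% of genes were called at 1 h, where no member was called, none had an unadjusted p under 0.05 and voom called 0, and 6.22% at 24 h, where Rbp4 was called. At basal 18.8% of genes were called between the strains, with Rarb and Rarg among them.

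For the Egr2 cells 0.778%, 2.86% and 4.35% of genes were called at 1, 6 and 24 h in Egr2WT and 0.902%, 3.70% and 4.83% in Egr2MKO. Of 5 members tested, no member was called at 1 h, where 2 in Egr2WT and 4 in Egr2MKO had an unadjusted p under 0.05 and voom called 0. Dhrs3 was called at 6 and 24 h in both genotypes, Rara at 6 h in Egr2MKO and Rbp4 at 24 h in Egr2WT. Between the genotypes 0.853% of genes were called at basal, 1.06% at 1 h and 2.30% at 6 h, and no member was, with 1, 3 and 2 members at an unadjusted p under 0.05 and 0 called by voom. The difference in response was called for 0.00828% of genes at 1 h and 0.207% at 6 h, and for no member, with 2 and 1 at an unadjusted p under 0.05 and 0 called by voom.

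Across the 10 group means of the 5 strains, the genes whose log2 levels followed each tested member most closely were named from 11907 genes by Pearson's r, as a description over means that share libraries. For Rbp4 they were Cish (r = 0.936), Arg1 (0.916) and Mob3b (0.901), and for Dhrs3 they were Rnf19b (0.943), Ankrd55 (0.943) and Car2 (0.941). Cish encodes a suppressor of cytokine signalling and Arg1 encodes arginase, a marker of IL-4-treated macrophages. For Rara they were Fosl2 (0.971), Hgsnat (0.930) and Ifngr1 (0.927), for Rarg Fcgrt (0.987), Decr2 (0.985) and Cep164 (0.984), and for Rdh10 Nfatc2ip (0.985), 5430427O19Rik (0.979) and Pacsin2 (0.974).

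The rest of the retinoid pathway can be read against the 3.80% of all genes called after 24 h of IL-4 in C57. Of 39 further genes for retinoid carriers, enzymes and RXR receptors, 19 were tested in the 5 strains, and after 24 h of IL-4 in C57 1 was called up and 0 down, with a median of -0.11 against -0.04 for all genes. That gene was Dhrs9, a dehydrogenase that acts on retinol, which rose by 1.89 in C57 (limma adjusted p = 9.0e-12) and by 1.81 in SPRET (adjusted p = 1.8e-11). In SPRET the aldo-keto reductase Akr1b8 fell by 2.00 (adjusted p = 4.1e-17). In BALB, NOD and PWK no gene of this list was called, 7, 11 and 4 had an unadjusted p under 0.05 and voom called 2, 3 and 1. The Dhrs9 response was smaller than that of C57 in BALB (-1.14, adjusted p = 9.1e-05), NOD (-1.58, adjusted p = 4.6e-07) and PWK (-1.60, adjusted p = 1.1e-06). In the time course Dhrs9 rose by 1.15 in C57 and 3.16 in SPRET at 6 h and by 1.45 and 2.54 at 24 h. Dhrs9 rose at 24 h by 2.31 in Egr2WT and by 2.84 in Egr2MKO. Other genes of this list were called down in the same tables. Adh7 was called down at 24 h in C57 of the time course, in Egr2WT and in Egr2MKO. Akr1b8 was called down in SPRET of the time course at 6 and 24 h, and at 24 h in Egr2WT and Egr2MKO.

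Among 12 textbook target genes of retinoic acid, 5 were tested in the 5 strains. Tgm2, the transglutaminase, rose by 1.37 in C57 (limma adjusted p = 6.3e-18), 1.23 in BALB and 1.12 in SPRET, and Cd38, an NAD-consuming enzyme, fell by 1.03 in C57 (adjusted p = 2.5e-09) and by 1.66 in SPRET (adjusted p = 2.2e-13). These 2 genes of one list therefore went opposite ways in the same libraries, and the list median in C57 was -0.10 against -0.04 for all genes. Neither Tgm2 nor Cd38 was called after IL-4 in NOD or PWK. In the time course Tgm2 was called at 24 h in SPRET (1.85) and not in C57. At 24 h Tgm2 was lower in Egr2MKO than in Egr2WT (-1.54), and its response differed by -1.43 (adjusted p = 1.0e-06). Its change with IL-4 was not called within either genotype. From basal to 24 h the sum of the 12 genes went from 86.6-90.7 to 125-130 TPM in Egr2WT. In Egr2MKO it went from 87.4-88.9 to 53.7-55 TPM. Among 9 tested corepressors and coactivators of nuclear receptors, none was called in C57 at 24 h, 3 had an unadjusted p under 0.05 and voom called 0.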

How the data were processed

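The authors aligned poly(A) RNA reads to mm10 with STAR and counted them with HOMER, per the labels and the study's methods, and deposited gene tables of TPM. The deposited F1 values are labelled TPM, whereas the study's methods describe read counts apportioned to the parents by the reads that overlap mutations. They were treated as scores with no known depth. The gene lengths listed for C57xSPRET are genomic spans, 8191 bases for Rbp4 against 922 in C57xNOD. Columns of log2 fold changes and p-values from the authors' own comparisons were not used, nor were 8 per-sample columns of human cells.

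Each table was fitted on its own with limma 3.58.1 (R 4.3.3, trended eBayes) on log2(TPM + 1), with a mean per group and Benjamini-Hochberg adjustment over the genes that reached 1 TPM in 2 or more libraries. A gene was called at a fold over 2 and an adjusted p under 0.05. F1 alleles were compared as the log2 ratio within each library, both values + 1, against 0, over the 4 libraries of a cross. Whole reads were recovered from the TPM steps and gene lengths, and 89.3% to 93.2% of low values were whole within 0.1. limma-voom was run on these reads. Intervals of 95% use limma's moderated error, and floors of 3 reads cover counting error only. Scripts were tested on simulated data. The members, the gene lists and the choice of windows were made with earlier results of these data known. Replicate numbers were not used as a block, because libraries with the same number did not deviate together: the mean correlation was 0.0134 over 126 pairs in the 5 strains, 0.0305 over 56 pairs in the time course and -0.0046 over 56 pairs in the Egr2 table. Named genes were the 8 members, called genes of the gene lists, and the 3 genes with the highest Pearson's r to each tested member. Promoter windows were read from RefSeq.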

Additional observations from a re-analysis of the deposited data

Results flagged for a closer look

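For Rbp4 and Rarb the difference between the responses of 2 groups was called. The 24 h response of Rbp4 in NOD minus that in C57 was -2.90 on the log2 scale, and that in SPRET minus that in C57 was -1.10. In the time course the Rbp4 difference at 24 h, SPRET minus C57, was -3.37. The Egr2MKO minus Egr2WT difference in the 24 h response of Rbp4 was -4.37. The Rarb difference at 6 h of the time course, SPRET minus C57, was -1.01. Rbp4 passed the filter of the Egr2 table only through the 2 Egr2WT libraries at 24 h, and Rarb that of the time course only through SPRET libraries, so both had to differ there, and -4.37 and -1.01 are given as descriptions. Rbp4 passed the filter mainly through IL-4 libraries in the 5 strains and only through 24 h libraries in the time course. The -2.90, -1.10 and -3.37 are therefore descriptions too, and -1.10 was not called with voom (adjusted p = 0.23). The Rarb difference was also not called with voom (adjusted p = 0.16) or in 5 fits that left out 1 library. The Rbp4 differences rested on basal libraries with few or no reads, and the Rarb difference rested on SPRET libraries, since C57 libraries held 0.198 TPM or less.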

How the results depend on the processing

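The 32 called results of members all kept their direction under every alternative that gave a value. Of these 32, 12 lost their call with a pseudocount of 5, 6 after quantile normalization, 3 after median-ratio rescaling, 2 with voom, 1 with a pseudocount of 0.1 and 1 with only the groups compared, and 12 of 176 comparisons that left out 1 library. None was lost with no filter, with robust eBayes or with the replicate block. Voom and the basal contrast of the time course were chosen after the data were seen. The replicate block changed no call, and since libraries with the same number did not deviate together (pairwise correlations from -0.143 to 0.333), the numbers were not taken as pairs. The counts of calls that moved were as follows, and the cause was not tested. Differences from C57 in the 24 h response numbered 2, and 5, 1, 5, 4 and 13 with a pseudocount of 0.1, with one of 5, after median-ratio rescaling, after quantile normalization and by adjusted p alone. Basal differences from C57 numbered 1, and 3, 0, 2 and 11 with a pseudocount of 0.1, with one of 5, with voom and by p alone. Differences after IL-4 numbered 5, and 2 with a pseudocount of 5 and 16 by p alone. In the time course the SPRET minus C57 responses numbered 2, and 1 with either pseudocount, with a mean of at least 1 TPM as the filter, with voom and with only the groups compared, and 5 by p alone. The basal SPRET minus C57 differences there numbered 2, and 0 with a pseudocount of 5, 1 with the mean filter and 1 after quantile normalization. Egr2MKO minus Egr2WT levels numbered 1, and 2 with a pseudocount of 0.1 and 9 by p alone, and the responses numbered 1, and 3 by p alone. By p alone the calls after IL-4 were 14 against 8 in the 5 strains, 12 against 4 in the time course and 15 against 6 in the Egr2 table.

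Leaving out 1 library gave 7 to 9 calls after IL-4 in the 5 strains, 4 to 5 in the time course and 5 to 6 in the Egr2 table. It gave 2 to 3 response differences from C57, 1 to 2 basal ones and 4 to 5 after IL-4, 1 to 2 for the SPRET minus C57 response and 1 to 3 for the basal difference in the time course. For Egr2MKO minus Egr2WT it gave 0 to 2 levels and 0 to 1 responses, with Rbp4 below the filter without either Egr2WT 24 h library. For F1 alleles it gave 0 to 0 in C57xNOD and 0 to 1 in C57xSPRET. Where it left a group with 1 library, that library was assumed to vary like the other groups. The few reads of Rarb, Aldh1a2 and Stra6 and of basal Rbp4 limit the detection of changes.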
